A study of Mus musculus with 11 samples.

Results

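Genes for making, modifying and removing sialic acid were followed in 3 populations of mouse CD4+ T cells: Gne, Nans, Nanp, Cmas, Cmah, Renbp, Neu1 and Neu3. The genes were chosen by their roles in sialic acid metabolism, with earlier results of these data known. Each was read from the probe set named by one of its RefSeq transcripts. Of these 8 genes 7 had such a probe set, 1 each, among the 909 genes and 1246 probe sets of the array, and Nanp, the phosphatase that releases free sialic acid, was not analysed here. The populations were sorted by flow cytometry from spleens of female C57BL/6 mice. Treg cells were CD4+ CD25+ CD45RBlow (n = 3, replicates 1, 2 and 4). CD45RBlow cells were CD4+ CD25- cells that the labels class as activated or memory (n = 4), and CD45RBhigh cells were CD4+ CD25- cells classed as naive (n = 4), both from untreated mice of 4 to 6 weeks. The labels state no age for the Treg mice, so age cannot be told apart from population in comparisons with Treg cells. No label says that replicates came from separate animals, and p-values therefore measure the spread between these samples only.

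Sialic acids are acidic sugars at the outer ends of many glycans on the cell surface. Cells make them from UDP-GlcNAc in the cytosol, join them to CMP in the nucleus, and hand the CMP-sugar to sialyltransferases in the Golgi. In mice the enzyme encoded by Cmah can first hydroxylate the CMP-bound sugar, which turns N-acetylneuraminic acid into N-glycolylneuraminic acid, and this changes which sialic acid binding lectins recognise a cell. Sialidases take sialic acid off again, at lysosomes or at the plasma membrane. In T cells the sialic acid coat differs between resting and activated states.

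All values are log2 expression per probe set, and array medians lay between 4.85 and 4.94. The sort was checked with Il2ra, which encodes CD25. It read 9.69 to 10.02 in Treg arrays, 5.77 to 6.54 in CD45RBlow arrays and 3.85 to 4.45 in CD45RBhigh arrays. Of 11 markers listed for regulatory T cells 7 were measured, and all 7 were called higher in Treg cells against both other populations. Il2ra is among these 7, and the list was chosen with earlier results of these data known. The count is therefore no independent check of the sort. The same 7 were also called higher in CD45RBlow than in CD45RBhigh cells, with a median log2 difference of 2.04. Foxp3 was not analysed here, and of 7 general T cell markers Cd2 alone was measured. Each measurement is of a sorted population as a whole, so fewer cells that express a gene and less RNA per cell cannot be told apart.

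Treg cells had less Cmah and Cmas and more Neu3 and Renbp transcript than both CD25- populations. Against CD45RBhigh cells 5 of the 7 genes passed an adjusted p of 0.05 in limma, 2 of them higher and 3 lower in Treg cells. In that comparison 18.9% of the whole array passed, 10.3% on the higher and 8.59% on the lower side. Against CD45RBlow cells 4 of the 7 passed, 2 higher and 2 lower, where the share of the whole array was 12.5%, with 6.74% higher and 5.78% lower. Between CD45RBlow and CD45RBhigh cells 1 gene passed, Cmah, which was lower in CD45RBlow cells, where the share of the whole array was 12.6%, with 7.62% higher and 4.98% lower. Quantile normalization of the values again turned the split of that comparison to 98 higher and 129 lower, against 95 higher and 62 lower as deposited. The median difference over the 7 genes was -0.04, 0.12 and -0.10 in these 3 comparisons in turn, and over all probe sets -0.04, 0.04 and -0.08. The comparisons share arrays and are not independent of each other. With the replicate number as a block the 7 genes gave 5 calls between Treg and CD45RBhigh cells, where 26.5% of the whole array passed, with 151 higher and 179 lower against 128 higher and 107 lower without it. That block also gave 5 between Treg and CD45RBlow cells, where 245 probe sets (19.7%) passed in place of 156, with 112 higher and 133 lower against 84 higher and 72 lower. It gave 2 between CD45RBlow and CD45RBhigh cells, where 271 (21.7%) passed in place of 157, with 125 higher and 146 lower.

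**Figure D1:**
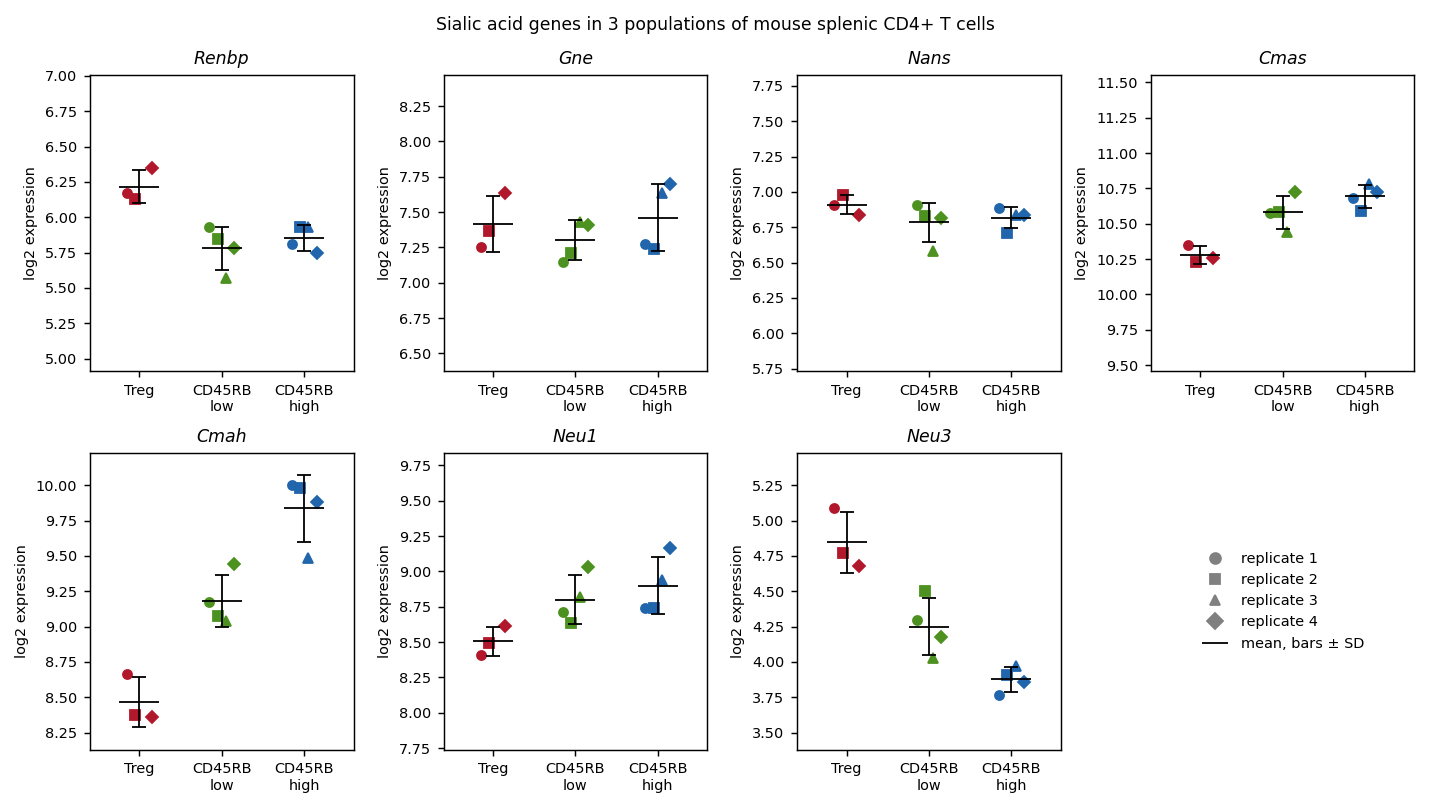
Log2 expression of the 7 measured genes (vertical axis, the same span of 2.1 log2 units in each panel) in Treg, CD45RBlow and CD45RBhigh cells (horizontal axis). Each point is 1 array, its shape gives the replicate number, and bars show the mean ± SD. Cmah is lowest and Neu3 highest in Treg cells, with CD45RBlow cells in between, while Gne and Nans overlap between all populations.

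Cmah, the hydroxylase, differed most. It read 8.67, 8.37 and 8.36 in Treg replicates 1, 2 and 4, against 9.17, 9.07, 9.04 and 9.45 in CD45RBlow replicates 1 to 4 and 10.00, 9.98, 9.49 and 9.88 in CD45RBhigh replicates 1 to 4. The 3 populations did not overlap, and CD45RBlow cells lay between the other two. The mean was 8.47 ± 0.17 in Treg cells (SD, n = 3), 9.18 ± 0.18 in CD45RBlow cells (SD, n = 4) and 9.84 ± 0.24 in CD45RBhigh cells (SD, n = 4). Treg cells had 2.58-fold less Cmah transcript than CD45RBhigh cells (log2 difference -1.37, SE 0.14, limma adjusted p = 2.79e-05). They had 1.64-fold less than CD45RBlow cells (-0.71, SE 0.14, adjusted p = 0.00584). CD45RBlow cells in turn had 1.57-fold less than CD45RBhigh cells (-0.65, SE 0.13, adjusted p = 0.00624). That last difference was -0.87 within replicates 1 and 2 and -0.44 within replicates 3 and 4, where it no longer passed (adjusted p = 0.138). Klrd1, listed as a marker of natural killer and CD8 T cells, had the same order of levels as Cmah. Il2rb of that list had the opposite order, with means of 10.79 in Treg, 9.84 in CD45RBlow and 7.27 in CD45RBhigh cells. Klra3, also of that list, lay under the first quartile of all values in each population. The part of such cells in the Cmah difference was not tested. The Cmah probe set has an ID with the suffix s, so its signal may not be specific to 1 transcript.

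Cmas, which joins sialic acid to CMP and so makes the substrate of Cmah and of every sialyltransferase, was also lower in Treg cells. It read 10.35, 10.23 and 10.26 in Treg arrays, against 10.58, 10.58, 10.44 and 10.73 in CD45RBlow arrays and 10.69, 10.59, 10.78 and 10.72 in CD45RBhigh arrays. All Treg arrays lay below all arrays of the other populations, and those 2 populations overlapped. The log2 difference was -0.41 between Treg and CD45RBhigh cells (SE 0.08, limma adjusted p = 0.00238) and -0.30 between Treg and CD45RBlow cells (SE 0.08, adjusted p = 0.0228). The difference from CD45RBlow cells missed the threshold when Treg replicate 2 (adjusted p = 0.0892) or 4 (0.0650) was left out, and when CD45RBlow replicate 1 (0.0510) or 4 (0.0554) was. It was -0.29 within replicates 1 and 2 and -0.33 within replicates 3 and 4, and neither passed (adjusted p = 0.111 and 0.157). The call also ended when quantiles were normalized again, where the difference was -0.15 (adjusted p = 0.110). Between CD45RBlow and CD45RBhigh cells the difference was -0.11, with a 95% interval from -0.27 to 0.04.

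Renbp, Gne and Nans did not move as a group. Renbp, which interconverts GlcNAc and N-acetylmannosamine, read 6.17, 6.13 and 6.35 in Treg arrays, against 5.93, 5.84, 5.57 and 5.78 in CD45RBlow arrays and 5.81, 5.93, 5.93 and 5.75 in CD45RBhigh arrays. Treg arrays lay above all others, by a mean of 1.35-fold over CD45RBlow cells (log2 difference 0.43, SE 0.09, limma adjusted p = 0.00885) and 1.28-fold over CD45RBhigh cells (0.36, SE 0.09, adjusted p = 0.0181). The difference from CD45RBhigh cells no longer passed within replicates 1 and 2 (0.28, adjusted p = 0.0874), when Treg replicate 4 was left out (0.30, adjusted p = 0.0736), or when quantiles were normalized again (0.23, adjusted p = 0.141). The difference from CD45RBlow cells was 0.26 within replicates 1 and 2 (adjusted p = 0.134) and 0.67 within replicates 3 and 4, which hold 1 Treg array. CD45RBlow and CD45RBhigh cells differed by -0.07 in Renbp, with a 95% interval from -0.26 to 0.11. Its probe set also has the suffix s.

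Gne encodes the epimerase and kinase that starts sialic acid synthesis from UDP-GlcNAc and sets its rate. It read 7.25, 7.36 and 7.63 in Treg arrays, against 7.15, 7.21, 7.43 and 7.41 in CD45RBlow arrays and 7.27, 7.24, 7.63 and 7.70 in CD45RBhigh arrays. The populations overlapped throughout. The log2 difference between Treg and CD45RBhigh cells was -0.04 (95% interval -0.34 to 0.25, limma adjusted p = 0.876), between Treg and CD45RBlow cells 0.12 (-0.18 to 0.41) and between CD45RBlow and CD45RBhigh cells -0.16 (-0.44 to 0.12).

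Nans, the synthase that forms phosphorylated sialic acid, read 6.91, 6.98 and 6.84 in Treg arrays, against 6.91, 6.83, 6.58 and 6.81 in CD45RBlow arrays and 6.88, 6.71, 6.84 and 6.84 in CD45RBhigh arrays. The populations again overlapped. Its log2 difference was 0.09 between Treg and CD45RBhigh cells (95% interval -0.09 to 0.27), 0.12 between Treg and CD45RBlow cells (-0.06 to 0.30) and -0.03 between CD45RBlow and CD45RBhigh cells (-0.20 to 0.13). None of these passed in limma, and the intervals leave room for differences of up to 0.30.

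**Figure D2:**
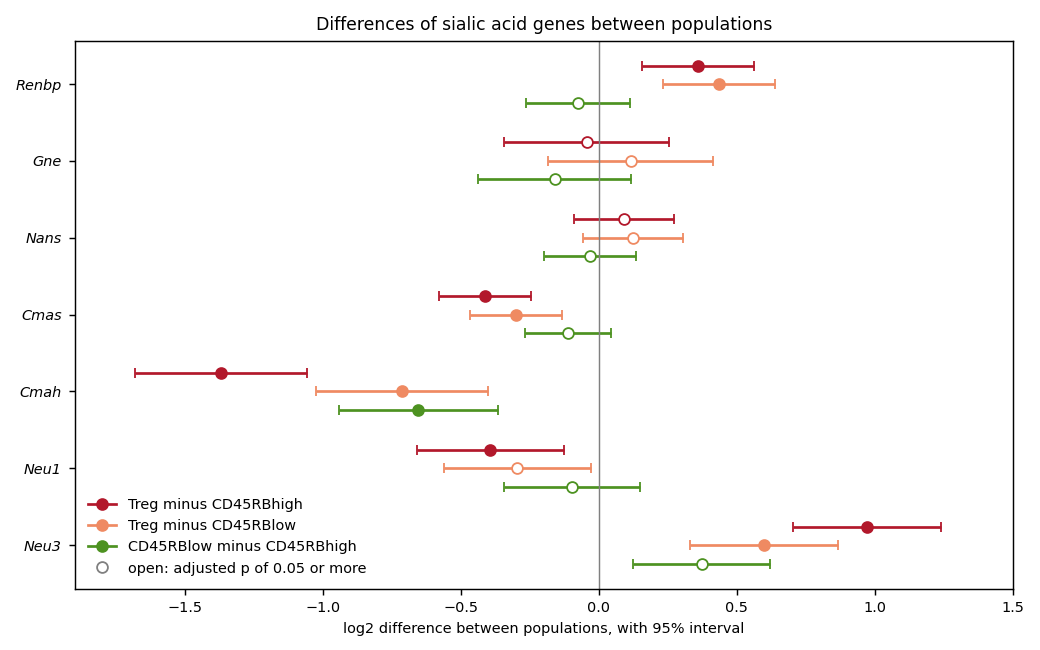
Log2 difference between populations (horizontal axis) for each of the 7 genes (vertical axis), with points for Treg minus CD45RBhigh, Treg minus CD45RBlow and CD45RBlow minus CD45RBhigh and bars for 95% intervals. Filled points passed an adjusted p of 0.05: Cmah in all 3 comparisons, Cmas, Renbp and Neu3 in both comparisons with Treg cells, and Neu1 against CD45RBhigh cells.

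The measured sialidases among the 7 genes differed in opposite directions. Neu3, the sialidase of the plasma membrane that prefers gangliosides, read 5.09, 4.77 and 4.68 in Treg arrays, against 4.29, 4.50, 4.03 and 4.17 in CD45RBlow arrays and 3.77, 3.91, 3.97 and 3.85 in CD45RBhigh arrays. The 3 populations did not overlap. Treg cells had 1.96-fold more Neu3 than CD45RBhigh cells (log2 difference 0.97, SE 0.12, limma adjusted p = 0.000137) and 1.51-fold more than CD45RBlow cells (0.60, SE 0.12, adjusted p = 0.00693). CD45RBlow cells read 0.37 above CD45RBhigh cells (SE 0.11), which missed the threshold (adjusted p = 0.0536) and passed with the replicate number as a block (adjusted p = 0.0329). That difference also passed when Treg replicate 1 (adjusted p = 0.0347) or CD45RBlow replicate 3 (0.45, adjusted p = 0.0275) was left out, and it was 0.56 within replicates 1 and 2 and 0.19 within replicates 3 and 4. The CD45RBhigh mean of Neu3, 3.88 ± 0.09 (SD, n = 4), lay close to the first quartile of all values on the array, 3.64, so its differences from CD45RBhigh cells may be understated.

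Neu1, the lysosomal sialidase, read 8.41, 8.49 and 8.62 in Treg arrays, against 8.71, 8.64, 8.82 and 9.03 in CD45RBlow arrays and 8.74, 8.74, 8.94 and 9.17 in CD45RBhigh arrays. Every Treg array lay below every other array. Treg cells were 1.31-fold lower than CD45RBhigh cells (log2 difference -0.39, SE 0.12, limma adjusted p = 0.0438). It missed the threshold in 11 of 24 alternatives. These left out Treg replicate 1 (adjusted p = 0.146), 2 (0.120) or 4 (0.0527), CD45RBhigh replicate 3 (0.0892) or 4 (0.0854) or CD45RBlow replicate 1 (0.0586) or 3 (0.0575), or used replicates 1 and 2 (0.0806), the compared arrays (0.0565), a mean trend (0.0636) or quantile normalization again (0.0618). The difference from CD45RBlow cells was -0.30 (SE 0.12, adjusted p = 0.167), and with the block it was -0.29 and passed (adjusted p = 0.0212). CD45RBlow and CD45RBhigh cells differed by -0.10, with a 95% interval from -0.34 to 0.15.

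Counted without a model, the arrays of Treg and CD45RBhigh cells did not overlap for 5 of the 7 genes, where 25% of all probe sets did not overlap. Treg and CD45RBlow arrays did not overlap for 5, against 21.3% of all, and CD45RBlow and CD45RBhigh arrays did not for 2, Cmah and Neu3, against 17.8% of all. Ranked by p among 1246 probe sets in Treg against CD45RBhigh cells, Cmah stood at 50, Neu3 at 66, Cmas at 108, Renbp at 176, Neu1 at 218, Nans at 653 and Gne at 1066. For 3 of the genes a pair of CD45RBhigh arrays held exactly equal values, namely Nans, Renbp and Neu1, as did 439 of all probe sets in at least 1 population.

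Gne and Neu1 varied with the replicate number more than the other genes did. In Gne the arrays of replicates 3 and 4 read 7.41 to 7.70 in every population and those of replicates 1 and 2 read 7.15 to 7.36, with no overlap. With the population in the model, replicates 3 and 4 were higher than replicates 1 and 2 by 0.32 in Gne (SE 0.05, limma adjusted p = 0.00112) and by 0.25 in Neu1 (SE 0.06, adjusted p = 0.0130). These 2 of the 7 genes passed, where 20.6% of all probe sets did. The split into replicate sets was chosen on these data, and no label says what the numbers mark. The difference in Cmah between the sets was -0.11, with a 95% interval from -0.34 to 0.12, and in Neu3 -0.15 (-0.34 to 0.04). Whether a difference between populations itself depended on the set was tested for the 7 genes in all 3 comparisons, and 0 of 21 tests passed in limma. Renbp between Treg and CD45RBlow cells alone was under 0.05 without adjustment.

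**Figure D3:**
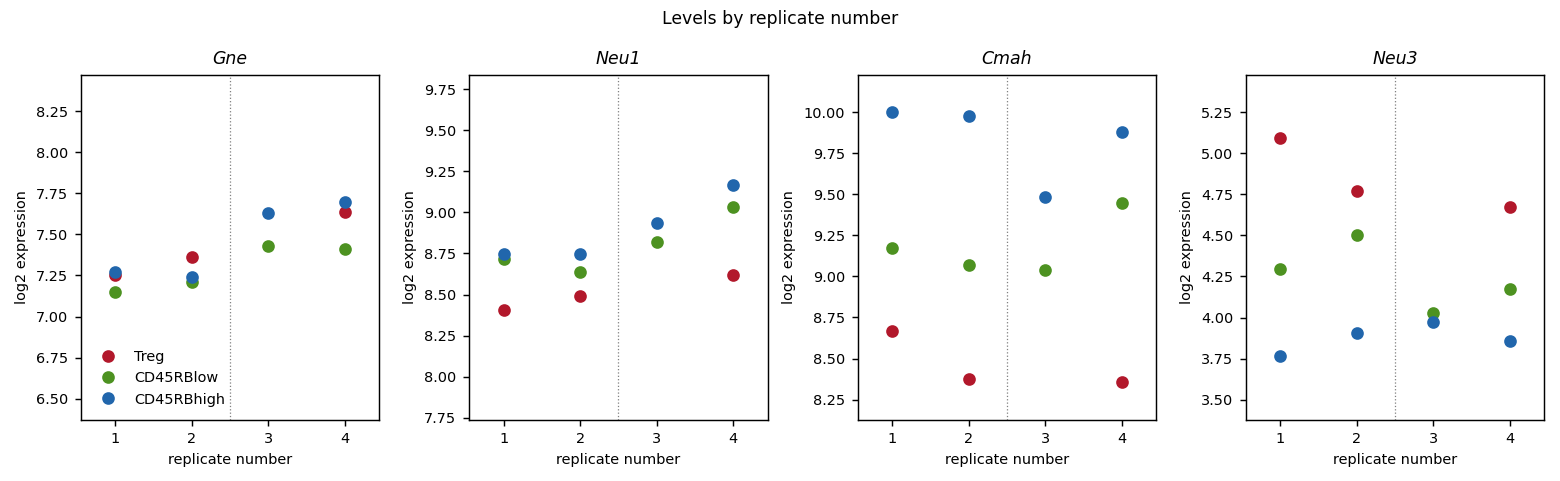
Log2 expression (vertical axis, the same span in each panel) of Gne, Neu1, Cmah and Neu3 by replicate number (horizontal axis), coloured by population, with a dotted line between replicates 2 and 3. In Gne replicates 3 and 4 lie above replicates 1 and 2 in every population, while in Cmah and Neu3 the populations stay apart at each number, with the smallest gap in Neu3 at replicate 3.

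The start sites of the 4 genes that differed between Treg cells and both CD25- populations are shown because Cmah and Cmas were lower together and Neu3 and Renbp higher together. The 250 bases before each start site come from RefSeq on build GRCm38.p6, read on the gene's strand. RefSeq gives Cmah a pair of start sites, with windows at chr13:24327154-24327403 and chr13:24414872-24415121 on the + strand. The Cmas window is chr6:142756436-142756685 on the + strand, the Renbp window chrX:73930851-73931100 on the - strand and the Neu3 window chr7:99828418-99828667 on the - strand. Capitals mark matches, on either strand, to 6 motifs: the GC box GGGCGG, the CCAAT box CCAAT, the TATA box TATAAA, the E-box CACGTG, the forkhead core TGTTTA and the ETS core CCGGAAG.
Cmah first start site: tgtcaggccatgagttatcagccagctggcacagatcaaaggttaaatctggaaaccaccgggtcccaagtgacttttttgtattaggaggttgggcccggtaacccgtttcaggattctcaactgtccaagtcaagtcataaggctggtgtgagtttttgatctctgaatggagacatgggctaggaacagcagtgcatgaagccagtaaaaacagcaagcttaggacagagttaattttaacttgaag
Cmah second start site: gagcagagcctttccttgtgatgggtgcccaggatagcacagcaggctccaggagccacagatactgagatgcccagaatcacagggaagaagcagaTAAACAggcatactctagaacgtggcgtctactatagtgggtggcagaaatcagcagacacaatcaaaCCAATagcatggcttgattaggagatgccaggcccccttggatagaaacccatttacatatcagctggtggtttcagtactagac
Cmas: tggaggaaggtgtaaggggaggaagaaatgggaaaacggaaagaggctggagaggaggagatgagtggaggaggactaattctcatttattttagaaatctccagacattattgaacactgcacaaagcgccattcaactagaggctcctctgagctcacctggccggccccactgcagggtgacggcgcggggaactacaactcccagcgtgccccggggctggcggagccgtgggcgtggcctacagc
Renbp: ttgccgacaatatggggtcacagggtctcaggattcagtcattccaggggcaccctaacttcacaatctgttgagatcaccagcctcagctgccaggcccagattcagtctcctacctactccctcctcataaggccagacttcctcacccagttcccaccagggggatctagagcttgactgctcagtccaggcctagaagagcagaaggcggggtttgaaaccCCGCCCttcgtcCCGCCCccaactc
Neu3: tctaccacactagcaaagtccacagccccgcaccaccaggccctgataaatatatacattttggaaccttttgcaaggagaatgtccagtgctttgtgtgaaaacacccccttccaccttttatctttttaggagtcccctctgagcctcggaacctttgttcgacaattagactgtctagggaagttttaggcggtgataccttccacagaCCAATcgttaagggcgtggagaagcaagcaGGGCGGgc
The second Cmah window held 1 forkhead core and 1 CCAAT box, and the first held no match. Cmas held no match, Renbp held 2 GC boxes within its last 25 bases, and Neu3 held 1 GC box and 1 CCAAT box. The annotated Neu3 gene reaches to chr7:99828457, inside its window, and both of its matches lie in that overlap. No match overlapped another. Among 32851 windows of the same length in the table, 32.7% held the GC box, 33.8% the CCAAT box, 12.4% the TATA box, 6.02% the E-box, 12% the forkhead core and 6.91% the ETS core. The G and C content was 45.6% and 49.6% in the Cmah windows, 56.8% in Cmas, 57.2% in Renbp and 49.2% in Neu3, against a median of 52.4% over all windows.

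Other genes of sialic acid handling were read in the same way. Of 10 genes listed beside the 7, 6 were measured, among them Slc35a1, which carries CMP-sialic acid into the Golgi. In Treg against CD45RBhigh cells 1 rose and 1 fell, where 18.9% of all probe sets passed, and the median difference was 0.03. Glb1, the lysosomal beta-galactosidase that shares a complex with Neu1, rose by 0.48 (SE 0.12, limma adjusted p = 0.0165), and lost the call when Treg replicate 1 (adjusted p = 0.0512) or 4 (0.0561) was left out and within replicates 3 and 4 (0.31, adjusted p = 0.0904). Ctsa, the protective protein of that complex, was 4.67 in Treg and 4.89 in CD45RBhigh cells (difference -0.23, adjusted p = 0.0433), and its call ended without any 1 of 10 of the 11 arrays (adjusted p 0.0544 to 0.142). Against CD45RBlow cells 0 of the 6 passed in limma, where 12.5% of all probe sets did, and 0 had an unadjusted p under 0.05. Glb1 alone passed between the CD25- populations, where 12.6% of all probe sets did. It was higher in CD45RBlow than in CD45RBhigh cells by 0.39 (SE 0.11, adjusted p = 0.0443). Among the 11 fits that each left out 1 array, it kept its call only without CD45RBhigh replicate 4. Slc35a1 differed by 0.01 between Treg and CD45RBhigh cells (SE 0.10) and by 0.17 between Treg and CD45RBlow cells (SE 0.10), and neither passed.

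Of 13 genes for UDP-GlcNAc supply and use 11 were measured. Treg cells differed from CD45RBhigh cells in 1 of them, Uap1l1, a relative of the enzyme that forms UDP-GlcNAc, which rose by 0.34 (SE 0.08, limma adjusted p = 0.0120), and by 0.30 within replicates 3 and 4, where it did not pass (adjusted p = 0.0806). In that comparison 18.9% of all probe sets passed, and the list's median difference was 0.02. Between Treg and CD45RBlow cells 0 passed in limma, where 12.5% of all did, with 1 at an unadjusted p under 0.05. Between CD45RBlow and CD45RBhigh cells 0 passed, where 12.6% of all did, with 4 at an unadjusted p under 0.05.

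**Figure D4:**
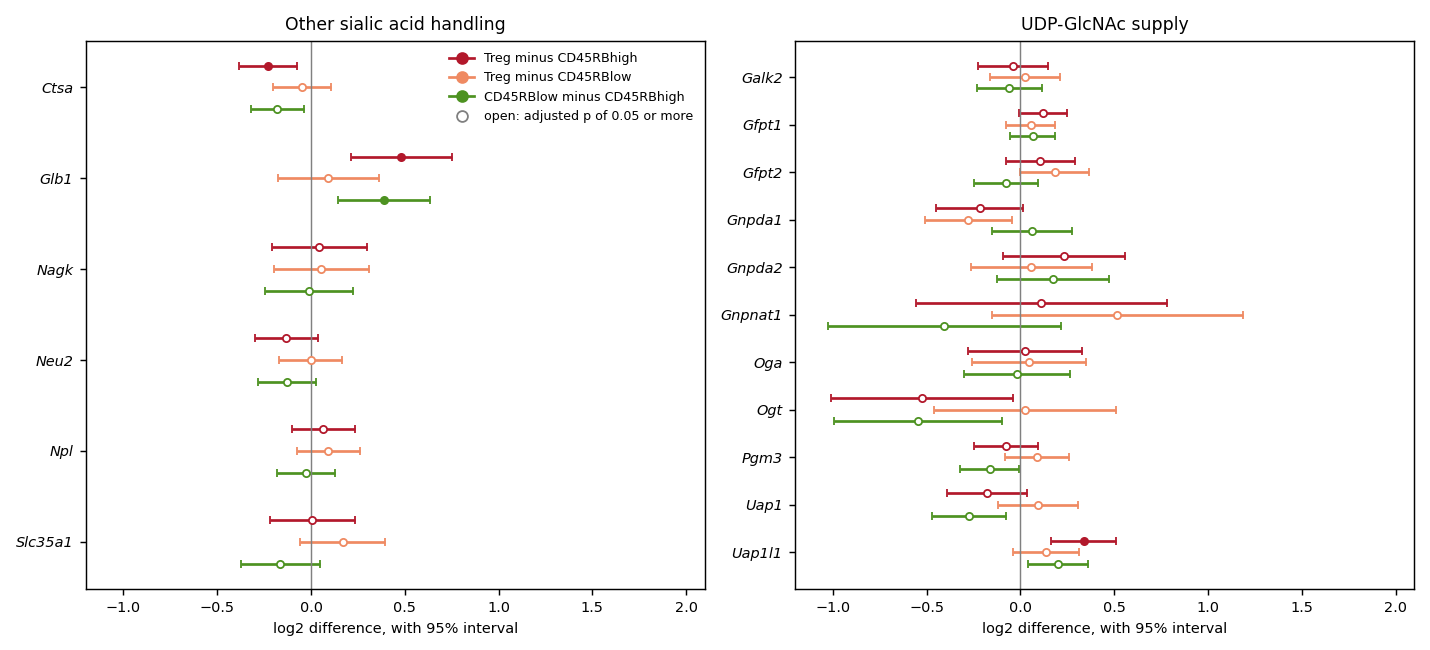
Log2 difference between populations (horizontal axis) with 95% intervals for 6 other genes of sialic acid handling and 11 genes of UDP-GlcNAc supply (vertical axis), for the same 3 comparisons. Filled points passed an adjusted p of 0.05, which were Glb1 in 2 comparisons and Ctsa and Uap1l1 between Treg and CD45RBhigh cells.

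The sialyltransferases, which use the CMP-sialic acid, had called genes in both directions. Of 19 measured, 2 rose and 3 fell in Treg against CD45RBhigh cells (median 0.07), where 18.9% of all probe sets passed. Against CD45RBlow cells 3 rose and 4 fell (median 0.09), where 12.5% of all passed. In CD45RBlow against CD45RBhigh cells 5 rose and 2 fell (median -0.01), where 12.6% of all passed. St3gal6, which caps galactose with sialic acid, had the smallest adjusted p in both comparisons with Treg cells. It averaged 4.87 in Treg, 8.13 in CD45RBlow and 7.50 in CD45RBhigh cells, a difference of -3.27 (SE 0.13) against CD45RBlow and of -2.64 (SE 0.13) against CD45RBhigh cells. St8sia1, which makes the ganglioside GD3, differed by -1.24 (SE 0.13) against CD45RBlow and by -1.89 (SE 0.13) against CD45RBhigh cells. St3gal5, which makes the ganglioside GM3, was higher in Treg cells by 0.36 against CD45RBlow cells and by 0.80 against CD45RBhigh cells (SE 0.07 each), and St3gal2 by 0.68 and by 1.15 (SE 0.14 each). Against CD45RBlow cells St3gal5 did not pass within replicates 1 and 2 (0.34, adjusted p = 0.0684) or 3 and 4 (0.37, adjusted p = 0.119), nor did St3gal2 within replicates 1 and 2 (0.53, adjusted p = 0.0774). In CD45RBlow against CD45RBhigh cells the difference was -1.05 in St8sia6 (SE 0.14, limma adjusted p = 0.000301), 0.44 in St3gal5 (SE 0.07, adjusted p = 0.00109), -0.66 in St8sia1 (SE 0.12, adjusted p = 0.00283) and 0.83 in St6galnac1 (SE 0.16, adjusted p = 0.00452). St6galnac1 averaged 4.45 in CD45RBlow and 3.62 in CD45RBhigh cells, the latter under the first quartile of all values, 3.64. The probe set IDs of St8sia1 and St8sia6 have the suffix s.

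Of 13 lectins that bind sialylated glycans 12 were measured. Selp, which encodes P-selectin, is also listed as a marker of platelets and erythroid cells. It was higher in Treg than in CD45RBlow cells by 0.48 (SE 0.09, limma adjusted p = 0.00490). In Treg cells it was also higher than in CD45RBhigh cells, by 0.37 (SE 0.09, adjusted p = 0.0152). That difference was 0.28 without Treg replicate 4 (adjusted p = 0.0572) and 0.30 within replicates 1 and 2 (adjusted p = 0.0874). Cd22, a sialic acid binding lectin best known from B cells, was 6.35 in Treg, 6.64 in CD45RBlow and 6.06 in CD45RBhigh cells. It was higher in Treg than in CD45RBhigh cells by 0.29 (adjusted p = 0.0181), which missed the threshold when Treg replicate 1 was left out (adjusted p = 0.0734), within replicates 3 and 4 (0.24, adjusted p = 0.230) and with quantile normalization again (0.17, adjusted p = 0.184), and higher in CD45RBlow than in CD45RBhigh cells by 0.59 (adjusted p = 0.000150). Between Treg and CD45RBlow cells it differed by -0.30 (adjusted p = 0.0235), which missed it when any Treg array (adjusted p 0.0514 to 0.0892) or CD45RBlow replicate 2 (0.0579) or 3 (0.0580) was left out. Siglech differed by -0.53 between CD45RBlow and CD45RBhigh cells (limma adjusted p = 0.0414), and it missed the threshold when any Treg or CD45RBlow array or CD45RBhigh replicate 1 or 2 was left out (adjusted p 0.0522 to 0.0943). Its means of 3.01 in CD45RBlow and 3.54 in CD45RBhigh cells lay under the first quartile of all values, its ID has the suffix x, and without CD45RBhigh replicate 4 the difference was -0.35. Of the lectins 2 were higher and 0 lower in Treg against CD45RBhigh cells in limma, where 18.9% of all probe sets passed. In that comparison 3 had an unadjusted p under 0.05. Against CD45RBlow cells 1 was higher and 1 lower, where 12.5% of all passed. In CD45RBlow against CD45RBhigh cells 1 was higher and 2 lower, where 12.6% of all passed.

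Markers of other cells were read beside these differences. Of 8 B cell markers 3 were measured, with a mean log2 value per array of 5.91 to 6.01 in Treg cells, 5.64 to 5.88 in CD45RBlow cells and 5.61 to 5.77 in CD45RBhigh cells. Cd72 was higher in Treg cells by 0.85 against CD45RBlow cells (limma adjusted p = 0.00154) and by 0.54 against CD45RBhigh cells (adjusted p = 0.0173), and by 0.46 against CD45RBhigh cells when Treg replicate 1 was left out (adjusted p = 0.0815). Fcer2a, another B cell marker, averaged 3.27 in Treg, 3.23 in CD45RBlow and 3.35 in CD45RBhigh cells, under the first quartile of all values. Of 20 myeloid and dendritic cell markers 12 were measured, at 3.68 to 3.76 in Treg, 3.64 to 3.69 in CD45RBlow and 3.72 to 3.87 in CD45RBhigh arrays, and 7 of the 12 lay under the first quartile in each population. In Treg against CD45RBhigh cells 1 of them passed in limma, Cd209a (-0.24, adjusted p = 0.0476), where 18.9% of all probe sets passed. Against CD45RBlow cells 0 passed, where 12.5% of all did, with 0 at an unadjusted p under 0.05. In CD45RBlow against CD45RBhigh cells 3 passed, where 12.6% of all did. These 3 were lower and so in the direction of Cmah, namely Clec10a (-0.31, adjusted p = 0.0170), Cd209a (-0.26, adjusted p = 0.0320) and Siglech. Both Cd209a calls were lost in many alternatives, 13 of 23 for Treg against CD45RBhigh cells and 8 of 23 between the CD25- populations, and that of Clec10a within replicates 1 and 2 (-0.15, adjusted p = 0.256). Of 8 natural killer and CD8 T cell markers 3 were measured, at 5.61 to 5.94 in Treg, 6.79 to 7.33 in CD45RBlow and 6.32 to 6.79 in CD45RBhigh arrays, and these averages join genes that went opposite ways. Klrd1, a receptor subunit of natural killer cells that is also found on T cells, read 3.40 to 4.23 in Treg, 8.01 to 8.53 in CD45RBlow and 8.94 to 9.40 in CD45RBhigh arrays, the order of Cmah. It differed by -4.35 between Treg and CD45RBlow cells (SE 0.20, limma adjusted p = 1.12e-07), by -5.29 between Treg and CD45RBhigh cells (SE 0.20, adjusted p = 1.42e-08) and by -0.94 between CD45RBlow and CD45RBhigh cells (SE 0.19, adjusted p = 0.00581). Il2rb, a receptor chain for interleukins that regulatory T cells also carry, averaged 10.79 in Treg, 9.84 in CD45RBlow and 7.27 in CD45RBhigh cells, the order of Neu3, and passed in all 3 comparisons. Its difference between Treg and CD45RBlow cells was 0.95, and 0.85 without Treg replicate 1 (adjusted p = 0.0528). Klra3, the third, averaged 2.61 in Treg, 2.98 in CD45RBlow and 3.05 in CD45RBhigh cells, under the first quartile of all values, and its call in Treg against CD45RBhigh cells (-0.45, limma adjusted p = 0.0425) was lost in 10 of 22 alternatives. The markers named here were chosen after their values were seen. The regulatory T cell markers averaged 9.00 to 9.44 in Treg, 6.37 to 7.16 in CD45RBlow and 4.68 to 4.93 in CD45RBhigh arrays, the same order as Neu3 and the opposite order to Cmah. Of 6 naive T cell markers 5 were measured. They averaged 9.76 to 10.00 in Treg, 10.60 to 10.98 in CD45RBlow and 11.49 to 11.60 in CD45RBhigh arrays. That was the order of Cmah, though not all 5 genes followed it. All 7 memory T cell markers were measured, at 7.07 to 7.14 in Treg, 8.76 to 9.75 in CD45RBlow and 6.25 to 6.85 in CD45RBhigh arrays. The part of these T cell states in the results was not tested. Of 5 platelet and erythroid cell markers Selp alone was measured, and it was higher in Treg cells, as given above. The part of other cells in the results was not tested.

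The genes whose values followed each sialic acid gene most closely were found by Pearson correlation over the 11 arrays, which fall into 3 populations, so the values are descriptions. The 3 probe sets closest to Cmah all belonged to Igfbp4, which binds insulin-like growth factors (r = 0.96 each), and those closest to Cmas were Tgfbr2 (r = 0.93), Il7r (0.93) and Tgfbr3 (0.92). Neu3 ran closest to the cytokine Il18 (r = 0.98), the receptor Igf1r (0.97) and the growth factor Areg (0.96). Neu1 ran closest to the Fringe enzyme Mfng (r = 0.98), Hdac5 (0.97) and the heparan sulfate sulfotransferase Hs6st1 (0.96). Renbp ran closest to Timd2 (r = 0.90), Cd2 (0.87) and Igf2r (0.86), and Timd2 averaged only 3.81 in Treg, 3.57 in CD45RBlow and 3.67 in CD45RBhigh cells.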

How the data were processed

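Values were the authors' deposited log2 expression per probe set, made with Robust Multichip Average (RMA) per the submitters' processing notes. Its version and settings are not given in the sources used here. Total RNA was amplified and biotin-labelled for a custom glycan gene chip, per the labels' protocols. Values ran from 1.99 to 14.17, and no further normalization or filter was applied. RefSeq IDs named 963 of 1246 probe sets (909 genes, annotation GRCm38.p6, for names and promoter windows only). For a gene with several probe sets the brightest by mean was used.

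With a mean for each population as the model, all probe sets of the 11 arrays were fitted in limma 3.58.1 in R 4.3.3 (empirical Bayes, prior degrees of freedom 2.87, residual 8). Two-sided p-values were adjusted by Benjamini-Hochberg in each comparison over 1246 probe sets, at a threshold of 0.05 and 95% intervals. No p was adjusted over a list alone. The method was tested on simulated data. The genes and lists were chosen with earlier results of these data known. Named were the 7 genes, up to 4 called genes per list and comparison by smallest adjusted p, and the 3 probe sets most like each called gene. One called gene of the lectin list is not reported here.

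Deviations from the population mean correlated between arrays of 1 replicate number in every one of 10 pairs (0.31 to 0.56, median 0.46). Over 30 pairs of other numbers the correlation ran from -0.65 to 0.58 (median -0.31), highest between Treg replicate 4 and CD45RBlow replicate 3. Pairs of number 1 with 2 or 3 with 4 were positive too. Pairing by number was thus not told apart from that split by these correlations. Arrays of equal replicate number carry matching title codes, apart from 1 digit that varies with the population. That match points to pairing by number, but no label explains the code or states that arrays were paired. The main fit holds no block. A fit with the replicate number as a block is given where it changed a call. Alternatives were other blocks, scalings, filters on dim probe sets, moderation, 1 probe set per gene and leaving out each array. Figures used matplotlib 3.10.9 with pandas 2.3.3 under Python 3.11.15.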

Additional observations from a re-analysis of the deposited data

How the results depend on the processing

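The 7 genes in 3 comparisons were recomputed under up to 24 alternatives, giving 501 values, of which 457 kept direction and side of the threshold, 24 lost the call, 11 gained it and 9 changed sign. Cmah and Neu3 kept both calls against Treg cells under each alternative that gave them a value (the filter above the median of all values left Neu3 out), as did Cmas against CD45RBhigh cells (adjusted p 0.00116 to 0.0460). All sign changes were in values that did not pass. Gne between Treg and CD45RBhigh cells became 0.0054 with the replicate block, 0.0095 with the replicate set as a block and 0.050 within replicates 1 and 2, and ran from -0.15 to 0.038 when 1 array was left out. Between CD45RBlow and CD45RBhigh cells Nans became 0.073 and Renbp 0.016 within replicates 1 and 2, and Nans ran from -0.075 to 0.034 without 1 array.

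Of the 7 genes, those called between Treg and CD45RBhigh cells were 3 within replicates 1 and 2 and 3 with quantiles normalized again, and 3 to 5 without 1 array, with 3 without Treg replicate 4. Between Treg and CD45RBlow cells 2 were called within replicates 1 and 2. Between CD45RBlow and CD45RBhigh cells 2 were called with a mean trend, with only the arrays compared, with quantiles normalized again, with each of the 3 blocks and within replicates 1 and 2, 0 within replicates 3 and 4, and 1 to 2 without 1 array, with 2 without CD45RBlow replicate 3 or Treg replicate 1. Over all probe sets, calls between Treg and CD45RBlow cells were 156, or 245 with the replicate block and 238 with the replicate set as a block. Between CD45RBlow and CD45RBhigh cells they were 157, or 271 and 247. In that comparison quantile normalization changed the split from 95 higher and 62 lower to 98 higher and 129 lower, and the replicate block to 125 and 146. Apart from Neu1 and Neu3, as given above, the replicate block changed no call of the 7 genes. The cause of these changes was not tested. Each gene had 1 probe set, so no other probe set could be tried. The number of arrays limits precision, and Neu3 also by its signal close to the first quartile of all values.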
